A study of Homo sapiens with 3 samples.

Results

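The 46 genes described here encode nuclear receptors, a superfamily of transcription factors. They were chosen by gene symbol, with no measured value in the rule, and they stand among 22825 genes in the counted tables. RNA came from MDA-MB-231, a human breast cancer cell line, and all 3 libraries belong to 1 group, labelled as biological replicates, that was treated with control siRNA. Cells were transfected with 50 nM siRNA on 2 occasions 24 h apart and taken 48 h after the last one, and pairs of 100 bp reads were sequenced. Cells given a targeting siRNA are not analysed here, so the values describe the receptor repertoire of the control cells and the spread between 3 cultures, with no contrast between treatments. An established line in culture holds none of the other cells of a breast tumour.

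Most nuclear receptors share a zinc finger domain that binds DNA and a pocket that binds a small lipophilic ligand. Steroid receptors are held by chaperones until a hormone arrives and then act mostly as dimers of themselves, whereas receptors for retinoids, thyroid hormone, vitamin D, fatty acids and oxysterols pair with a retinoid X receptor on DNA. Orphan receptors have no established natural ligand, or had none when they were named. In breast tissue the oestrogen and progesterone receptors define hormone-responsive epithelium, and cells of the triple-negative class, to which MDA-MB-231 belongs, are recognised by their low level. Members are described below as steroid (5 genes), retinoid (6), thyroid hormone and vitamin D (3), metabolic (10) and orphan (22) receptors.

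Under the rule, 45 of the 46 symbols had a record, and 162 RefSeq transcript records carried a member's symbol. NR2F1 had no record under its own symbol. One record that the files label NR2F2 (Entrez gene 7026) is assigned by RefSeq to NR2F1, and its counts of 1399, 1681 and 1154 in replicates 1, 2 and 3 are given here as NR2F1 and not as NR2F2. A gene's count was that of its record with the largest total.

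Gene counts summed to 67517921, 83456593 and 53622981 in replicates 1, 2 and 3. Of the markers listed for a breast carcinoma line, 8 of 8 were detected, with VIM at 4500 ± 161 TPM and the lowest, EPCAM, at 17.4 ± 1.23 TPM (SD, n = 3). This list was made with earlier results of these data known, so its detection does not check the identity of the cells. Few markers of other cells were found: 0 of 4 fibroblast, 0 of 3 adipocyte, 0 of 3 hepatocyte, 1 of 3 endothelial, 1 of 3 steroidogenic and 2 of 5 leukocyte markers were detected, and the defining genes DCN and LEP had 0 counts in all 3 libraries. The summed TPM of these lists ran from 0.159 to 0.292 for adipocyte and from 14.9 to 18.8 for leukocyte markers, the latter carried by LYZ at 13.8 ± 1.63 TPM. Their part in the receptor levels was not tested.

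Of the 46 receptors, 30 reached 1 CPM (counts divided by the TMM-scaled library size, in units of 1000000) in each library, the level called detected here. That is 65.2%, against 55.4% of all 22825 genes and 64% of the 16840 that RefSeq lists as protein coding, so the share of detected receptors lay close to the background. At 1 TPM (transcripts per 1000000, a level per length) or more in each library there were 27, beside 56.5% of genes with a length. Retinoid receptors were detected as 5 of 6, thyroid hormone and vitamin D receptors as 3 of 3, metabolic receptors as 7 of 10, orphan receptors as 13 of 22 and steroid receptors as 2 of 5. Another 6 receptors had 0 counts in all 3 libraries. They were RXRG, the bile acid receptor gene NR1H4, the hepatic regulator HNF4A, and the orphans NR0B1, NR2E1 and NR5A1. With both mates of a read pair counted, 3 undetected pairs (6 counts) allow such a gene up to 0.0892, 0.0720 and 0.111 CPM in replicates 1, 2 and 3, a limit that covers counting error only.

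**Figure D1:**
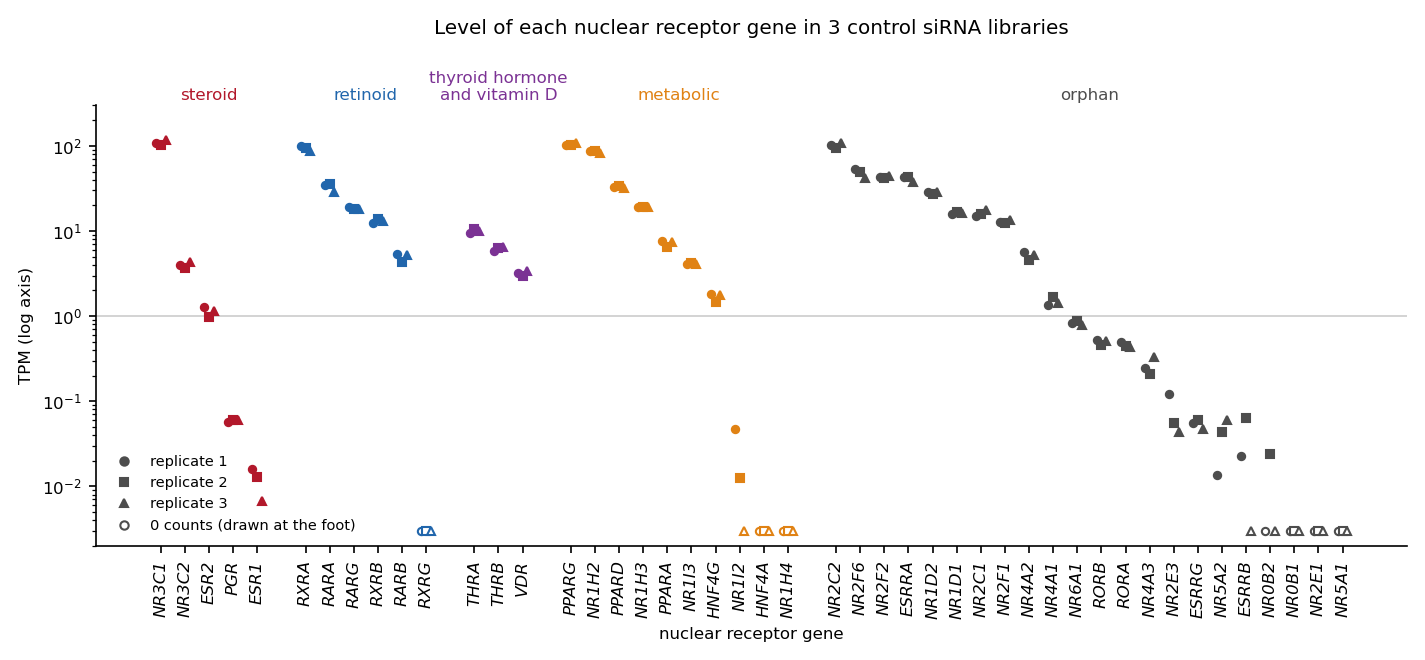
TPM of each of the 46 nuclear receptor genes (log axis) by receptor group, with 1 symbol per library and open symbols at the foot for 0 counts. The highest genes of the steroid, retinoid, metabolic and orphan groups lie near 100 TPM in each library, while 6 genes have 0 counts throughout.

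Levels between genes are given in TPM, which divides counts by transcript length. The median over members of log2(TPM + 1) was 4.05 ± 0.02 for retinoid, 2.84 ± 0.07 for thyroid hormone and vitamin D, 2.70 ± 0.04 for metabolic, 1.09 ± 0.10 for steroid and 0.72 ± 0.02 for orphan receptors (SD over 3 libraries), beside 2.17 ± 0.01 for all genes. Among detected members alone the medians lay between 2.84 and 4.56, and the steroid group, with 2 genes, then had the highest. The order of the groups below the retinoid receptors depended on length. With the longest transcript of each gene, metabolic receptors were at 2.94, above thyroid hormone and vitamin D receptors at 2.34, and orphan receptors at 0.86, above steroid receptors at 0.58. Both pairs were also reversed in log2(CPM + 1), with no length, at 3.04 against 2.99 and 1.63 against 0.94. No test compares these groups, since genes are not replicates.

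The 46 receptors summed to 871 ± 12.7 TPM. Orphan receptors held 36.4% ± 0.28 of that sum, metabolic receptors 29.4% ± 0.41, retinoid receptors 18.8% ± 1.05, steroid receptors 13.2% ± 0.91 and thyroid hormone and vitamin D receptors 2.23% ± 0.12. The order was the same in each library, and the 5 ranges did not overlap. NR3C1 alone held 12.6% ± 0.87 of the total, nearly all of the steroid share, and PPARG held 12.1% ± 0.44.

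**Figure D2:**
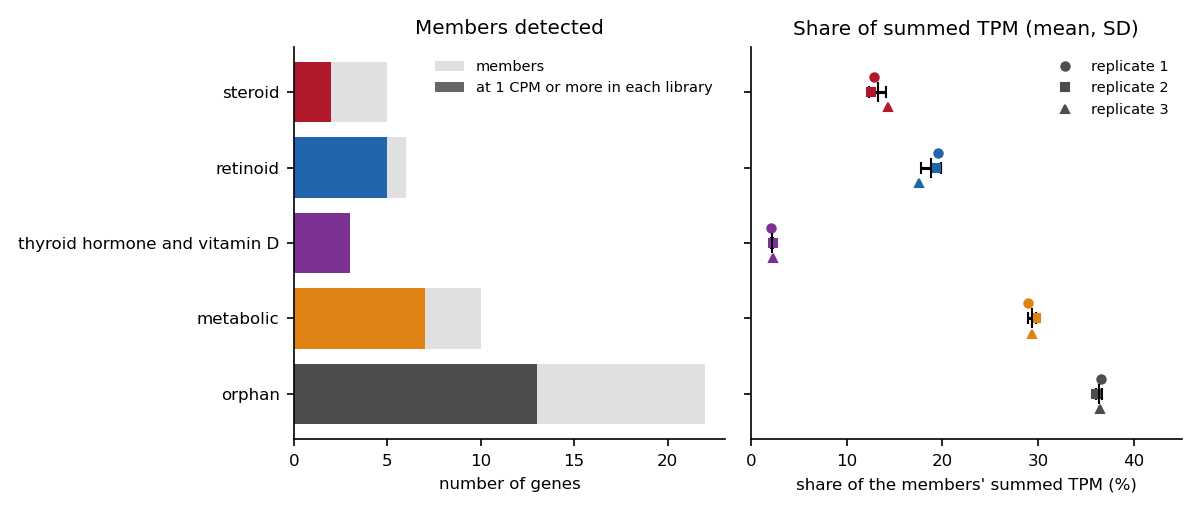
Left, number of members of each receptor group (pale) and number at 1 CPM or more in each library (coloured). Right, share of the members' summed TPM by library, with the mean and SD, where orphan receptors hold 36.4% and thyroid hormone and vitamin D receptors 2.23%.

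Among steroid receptors, transcripts were almost confined to the corticosteroid branch. NR3C1, the glucocorticoid receptor, was at 109, 103 and 118 TPM in replicates 1, 2 and 3. NR3C2, the mineralocorticoid receptor, stood at 3.99, 3.70 and 4.36 TPM. NR3C1 was thus at 27.4 ± 0.45 times the level of its closest relative, or 13.4 ± 0.22 times with the longest transcripts, and the libraries of the 2 genes did not overlap.

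The sex steroid receptors were at or below the edge of detection. ESR2, the beta form of the oestrogen receptor, had 69, 67 and 50 counts (1.26, 0.981 and 1.16 TPM), and with the longest transcript its mean was 0.501 instead of 1.13 TPM. PGR, the progesterone receptor, had 23, 30 and 19 counts (0.0576, 0.0601 and 0.0601 TPM). ESR1, the oestrogen receptor that defines hormone-responsive breast cancer, had 3, 3 and 1 counts (0.0160, 0.0128 and 0.00674 TPM). No level of background counts was estimated for genes with so few. In CPM, ESR2 reached 1 in replicate 1 alone (1.03, 0.804 and 0.928 CPM). It was the member nearest below the detection level, followed by the orphan NR4A3 (0.609, 0.516 and 0.798 CPM) and PGR (0.342, 0.360 and 0.353 CPM).

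Of genes known as glucocorticoid targets, 9 of 10 were detected, beside 64% of protein coding genes. The metallothionein MT2A was highest at 1026 ± 31.3 TPM. ZBTB16 had 0 counts, and the receptor's co-chaperone FKBP5, itself a target, was at 26.3 ± 1.004 TPM. All 8 chaperones listed for steroid receptors were detected, beside the same 64%, led by HSP90AB1 at 2130.4 ± 39.5 TPM and with FKBP5 lowest. Known oestrogen targets were detected as 5 of 8, a share near that background. The secretory stress regulator XBP1 was highest at 89.2 ± 4.55 TPM and PGR lowest. These genes have many other regulators, and no hormone treatment is named in the labels.

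The retinoid X receptors are the shared partners of the heterodimer class. RXRA was at 101, 94.5 and 87.3 TPM in replicates 1, 2 and 3, and RXRB at 12.3, 13.9 and 13.3 TPM. RXRG had 0 counts. Summed over the 3 genes, RXR transcripts came to 0.330 ± 0.02 times the sum of their listed partners, the RAR, THR, VDR, PPAR and NR1H genes, at 0.345, 0.331 and 0.313 in replicates 1, 2 and 3. That ratio was 0.153 with the longest transcripts and 0.497 with copies summed. RXRA and RXRB each carry an uncertainty above 1.5-fold. With the longest transcript RXRA stood at 38.6 TPM instead of 94.2. RXRB lies in the MHC region and had 6 copies of its record with totals from 2123 to 3391 counts, and with these copies summed it stood at 66.1 TPM instead of 13.2.

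The promoters of RXRA and RXRG are shown because these paralogs lie near opposite ends of the range of levels, and that of PPARG because its gene was among the highest with few CG dinucleotides. Each is the window of 250 bases before to 50 bases after the start that RefSeq gives (GRCh38.p14), 5′ to 3′ on the gene's strand, with CG dinucleotides in capitals. Which start these cells use was not measured. RXRA (chr9:134326205-134326504, plus strand), RXRG (chr1:165445077-165445376, minus strand) and PPARG (chr3:12287118-12287417, plus strand) read as follows.
RXRA: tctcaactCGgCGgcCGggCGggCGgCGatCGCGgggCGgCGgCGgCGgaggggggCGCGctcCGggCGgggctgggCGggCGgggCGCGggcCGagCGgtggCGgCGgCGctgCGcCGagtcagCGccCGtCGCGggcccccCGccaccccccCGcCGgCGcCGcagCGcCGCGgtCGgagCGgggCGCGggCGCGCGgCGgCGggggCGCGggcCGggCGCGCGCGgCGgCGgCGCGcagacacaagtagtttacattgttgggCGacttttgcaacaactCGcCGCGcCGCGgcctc
RXRG: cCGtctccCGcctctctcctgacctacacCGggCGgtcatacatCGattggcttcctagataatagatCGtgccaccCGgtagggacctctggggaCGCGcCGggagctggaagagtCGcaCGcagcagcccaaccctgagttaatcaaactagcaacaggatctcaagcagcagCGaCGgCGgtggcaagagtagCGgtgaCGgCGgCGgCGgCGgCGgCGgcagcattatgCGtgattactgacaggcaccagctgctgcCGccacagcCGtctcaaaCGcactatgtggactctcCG
PPARG: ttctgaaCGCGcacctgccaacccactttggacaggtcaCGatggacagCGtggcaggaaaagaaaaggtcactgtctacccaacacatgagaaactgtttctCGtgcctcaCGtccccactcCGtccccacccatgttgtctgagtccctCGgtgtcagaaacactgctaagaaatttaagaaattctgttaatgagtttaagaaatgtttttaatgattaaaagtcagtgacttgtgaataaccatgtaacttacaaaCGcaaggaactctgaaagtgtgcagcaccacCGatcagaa

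The RXRA window held 65 CG dinucleotides, the RXRG window 28 and the PPARG window 10. RXRG, with 0 counts, thus had more of them than PPARG at 105.2 TPM. Promoters of 41 of the 46 members were found in the RefSeq table, and those of HNF4G, NR0B2, NR2F6, NR4A2 and VDR were not. The median was 22.5 CG dinucleotides in 26 detected and 14 in 15 undetected members, beside 26 in 8959 detected and 7 in 4517 undetected protein coding genes. Windows with 10 or more were 21 of the 26 and 9 of the 15, beside 89.1% and 44.0% of the protein coding genes. The half-site AGGTCA, the core element that many nuclear receptors bind, was found on either strand in 3 of 26 detected and 4 of 15 undetected members, beside 13.9% of 27305 promoters of the same length, and PPARG held 2 of these matches. The palindrome CACGTG, read by clock and MYC family factors, was found in 2 and 2 members, beside 7.43% of all promoters. A match is a description of the letters and not a binding site.

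**Figure D3:**
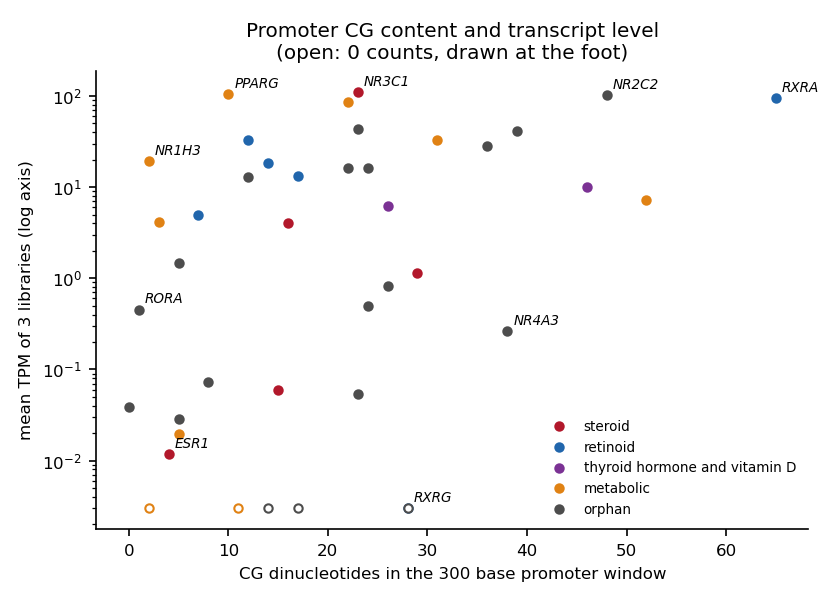
Mean TPM over 3 libraries (log axis) against the number of CG dinucleotides in the promoter window for the 41 members with an entry, coloured by receptor group, with open symbols for genes at 0 counts. RXRA combines 65 CG dinucleotides with 94.2 TPM, whereas RXRG (and NR0B1, at the same point) has 28 with 0 counts and PPARG has 10 with 105.2 TPM.

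The retinoic acid receptors proper spanned a wide range. RARA was at 34.9, 35.3 and 28.9 TPM, and RARG, the form known from skin and other epithelia, at 19.3, 18.0 and 18.0 TPM. RARB, a retinoid-inducible gene that is often silenced in carcinomas, stood at 5.34, 4.38 and 5.28 TPM, so RARA was at 6.69 ± 1.30 times its level, or 4.45 ± 0.86 times with the longest transcripts. The 3 genes did not overlap in any library. Retinoid targets and handling genes were detected as 5 of 10, beside 64% of protein coding genes. The transglutaminase TGM2 was highest at 232 ± 7.20 TPM. Of the retinoic acid hydroxylases CYP26B1 was at 7.63 ± 0.170 TPM and CYP26A1 at 0.00432 ± 0.007 TPM.

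Thyroid hormone and vitamin D receptors were all detected at modest levels. THRA stood at 9.58, 10.6 and 10.0 TPM and THRB at 5.76, 6.33 and 6.43 TPM, without overlap, a ratio of 1.63 ± 0.06 that became 4.71 ± 0.18 with the longest transcripts, where THRB was at 2.75 TPM. VDR, the vitamin D receptor, was at 3.25, 2.92 and 3.36 TPM. Its classical target CYP24A1, which degrades vitamin D, was at 7.59 ± 0.235 TPM. CYP24A1 was the 1 detected gene of 3 vitamin D targets listed, beside 64% of protein coding genes. THRA shares 263 exon bases with NR1D1 on the opposite strand in GENCODE 29, which is 9.49% of the exon bases of NR1D1. The strand setting of the counting is not given in the sources used here, so reads of the shared part cannot be told apart.

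Metabolic receptors included some of the most abundant members. PPARG, the fatty acid sensor that drives fat cell differentiation, was at 103, 104 and 109 TPM. NR1H2, the widely expressed oxysterol receptor, was at 87.2, 87.6 and 81.8 TPM, 4.46 ± 0.20 times the level of its paralog NR1H3 at 19.2, 19.0 and 19.3 TPM. PPARD stood at 32.8, 33.4 and 31.8 TPM. PPARA, the receptor of fatty acid oxidation in liver, was at 7.54, 6.53 and 7.46 TPM, so the order PPARG, PPARD, PPARA held in each library without overlap. It also held with the longest transcripts, at 124, 41.9 and 9.17 TPM.

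Receptors typical of liver and gut were low or absent. HNF4G was at 1.83, 1.45 and 1.75 TPM. The xenobiotic receptor NR1I2 had 6, 2 and 0 counts, and HNF4A and NR1H4 had 0 in each library. NR1I3, the other xenobiotic receptor, stood at 4.14, 4.25 and 4.12 TPM, but 32.2% of its exon bases are shared with TOMM40L on the opposite strand, a gene at 20.8 TPM. Its 15 records fell into 2 sets, 8 with totals of 481 to 488 counts and 7 with 223 to 230. With the smallest record NR1I3 was at 0.922 CPM in replicate 1 and no longer detected, and it was the 1 member whose detection depended on the record taken. Of 5 listed targets of xenobiotic and bile acid receptors with a record, 0 were detected, beside 64% of protein coding genes.

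Target genes of the metabolic receptors were read against the 64% of protein coding genes detected. Oxysterol receptor targets were detected as 6 of 7, with the desaturase SCD highest at 585 ± 32.4 TPM. APOE, at 1.44 ± 0.040 TPM, was below the detection level in CPM. PPAR targets were detected as 5 of 8, a share near that background, with the lipid droplet protein PLIN2 highest at 127 ± 5.06 TPM.

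Orphan receptors ranged from the top of the family to 0 counts. NR2C2, also called TR4, was at 103, 94.8 and 108 TPM and its paralog NR2C1, or TR2, at 15.2, 15.9 and 17.8 TPM, a ratio of 6.26 ± 0.44. With its longest transcript NR2C2 was at 38.6 TPM, above NR2C1 at 20.9 TPM by a ratio of 1.86 ± 0.13. The COUP-TF subfamily, broad repressors and regulators of cell fate, was expressed in full. NR2F6 was at 53.1, 50.0 and 42.5 TPM, NR2F2 at 43.4, 41.5 and 44.0 TPM, and NR2F1, by accession, at 12.9, 12.4 and 13.5 TPM. NR2F6 and NR2F2 overlapped, and NR2F1 was lower than either in each library.

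Of the oestrogen-related receptors, which drive mitochondrial genes without binding oestrogen, ESRRA was at 42.6, 43.3 and 37.3 TPM. It was 36.3 ± 6.35 times the sum of the true oestrogen receptors ESR1 and ESR2, and 100.1 ± 17.0 times with the longest transcripts. ESRRG had 9, 12 and 6 counts and ESRRB 2, 7 and 0. ESRRA shares 284 exon bases (11.6%) with TRMT112 on the opposite strand, a gene at 262 TPM.

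The clock repressors NR1D2 and NR1D1 were at 28.5, 27.0 and 28.7 TPM and at 16.0, 16.6 and 16.3 TPM, without overlap. Their activating counterparts at the same DNA elements were far lower, with RORB at 0.530, 0.453 and 0.506 TPM and RORA at 0.492, 0.440 and 0.429 TPM, and these 2 overlapped. All 8 clock partners listed were detected, beside 64% of protein coding genes. They ran from CRY1 at 37.2 ± 2.51 TPM to PER2 at 3.70 ± 0.170 TPM. RORA, at 1.99 CPM or more, RORB, at 1.88 or more, and NR4A1, at 1.56 or more in each library, were the members nearest above the detection level.

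The NR4A genes, immediate early genes induced by stress and growth signals, had mean levels from 5.15 down to 0.261 TPM in these cultures. NR4A2 stood at 5.63, 4.61 and 5.20 TPM, NR4A1 at 1.35, 1.68 and 1.41 TPM and NR4A3 at 0.248, 0.208 and 0.328 TPM, an order that held in each library. NR6A1, a germ cell factor, was at 0.833, 0.866 and 0.780 TPM. These levels rest on a record of 517 counts matched to 7031 bases, while its other record, with 514 counts, was matched to 1898 bases. The remaining orphans were near or at 0, with NR5A2 at 2, 8 and 7 counts, NR2E3 at 7, 4 and 2 counts, NR0B2 at 0, 1 and 0 counts, and NR5A1, NR0B1 and NR2E1 at 0.

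Cofactors that the receptors share were broadly present. All 11 coactivators were detected, beside 64% of protein coding genes. The arginine methyltransferase CARM1 was highest at 75.9 ± 5.91 TPM and PPARGC1B lowest at 0.680 ± 0.035 TPM. The 3 p160 coactivators NCOA3, NCOA1 and NCOA2 stood at 41.2 ± 1.89, 11.0 ± 0.590 and 7.97 ± 0.471 TPM. All 9 corepressors were detected as well, from GPS2 at 153 ± 5.26 and the deacetylase HDAC3 at 143 ± 0.712 TPM to NRIP1 at 11.7 ± 0.778 TPM. NCOR1, a scaffold that unliganded receptors bind, was at 41.6 ± 0.727 TPM.

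Down the family, the 5 highest genes, NR3C1, PPARG, NR2C2, RXRA and NR1H2, each overlapped their neighbour in level over the 3 libraries, with means from 110.1 to 85.5 TPM. A gap then separated NR1H2 from NR2F6 at 48.5 ± 5.47 TPM. The gap, the members of the top set and their order depended on length. With the longest transcripts NR2C2 and RXRA, both at 38.6 TPM, lay below NR2F6 at 62.2, NR2F2 at 55.0 and ESRRA at 51.0 TPM. In CPM, with no length, NR3C1 was highest at 169 ± 9.91, followed by NR2C2 at 105.4 and NR2F2 at 97.6, whereas with the longest transcripts PPARG was highest at 124 TPM, NR1H2 followed at 92.0 and NR3C1 came to 68.9 TPM. The first place of NR3C1 in TPM rests on a counted record matched to a transcript of 3556 bases, while 8 other records of the gene with 34224 counts each, against 34231, were matched to 6795 bases.

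Transcript records of a gene shared most of their counts. Among the 46 members, 9 had records more than 1.5-fold apart in total count: NR3C1, NR2F2, PPARD, RXRB, NR1I3, ESR2, NR4A3, NR2E3 and NR1I2. In NR3C1, 13 of 15 records held 97.5% to 100% of the largest, and the remaining 2 held 66.4% and 47.5%. In PPARD 4 of 5 records held at least 87.3% and 1 held 45.7%. The largest NR2F2 record had 19911 counts and the other 3 had between 12418 and 12860. Among the low genes, the 5 records of ESR2 ran from 123 to 186 counts, the 3 of NR4A3 had 127, 125 and 55, and the smallest and largest were 8 and 13 in NR2E3 and 4 and 8 in NR1I2. Each share is relative to the gene's largest record and is not an isoform level.

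**Figure D4:**
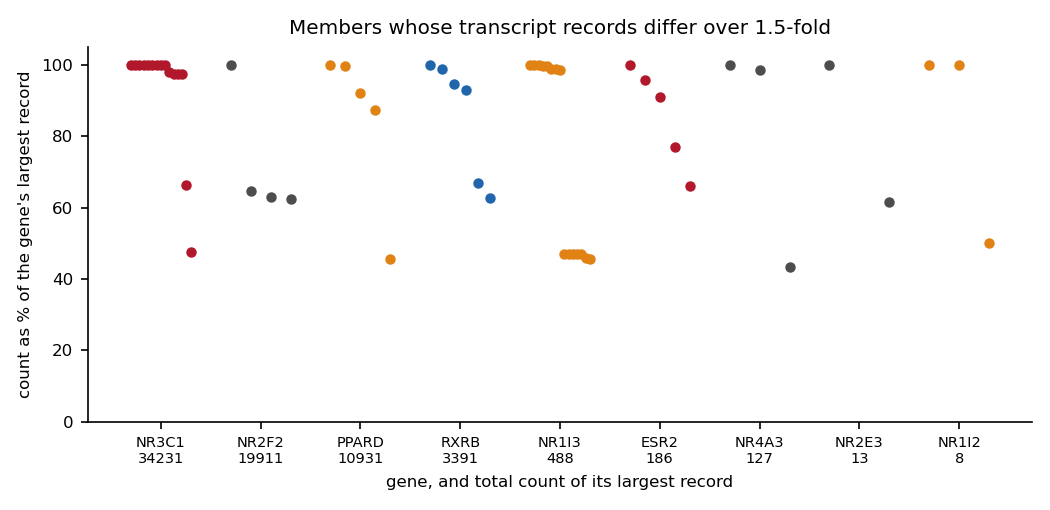
Total count of each transcript record as a percentage of the gene's largest record, for the 9 members whose records differ over 1.5-fold, coloured by receptor group, with the largest record's count under each name. NR1I3 falls into sets near 100% and 46%, and RXRB shows its 6 copies between 62.6% and 100%.

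Differences between the 3 cultures were then tested for each gene against counting noise (edgeR deviance of an intercept-only fit, halved for paired mates, Benjamini-Hochberg adjustment over 14443 genes). Of 33 receptors that passed the filter on low counts, 9 varied at an adjusted p under 0.05, which is 27.3% beside 28.2% of all tested genes, so the receptors varied about as often as the background. The changes were small. The highest library exceeded the lowest by 1.09- to 1.27-fold in the 9 genes, and by a median of 1.13-fold over the 33, against 1.11-fold over all tested genes. A call also depends on the number of counts, so a receptor not called is not shown to be stable. The lowest total among the 9 was 5905 counts, in NR2C1. NR4A3, with 127 counts, had the widest spread of those tested, 1.55-fold, and was not called (edgeR adjusted p = 0.532).

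Of the 9, 5 were lowest in replicate 3. NR2F6 was at 55.1, 52.3 and 43.6 CPM in replicates 1, 2 and 3 (edgeR adjusted p = 1.3e-08). RXRA was at 80.4, 75.9 and 68.7 CPM (edgeR adjusted p = 1.6e-05), and RARA at 30.5, 31.1 and 25.0 CPM (edgeR adjusted p = 6.9e-05). The same low place of replicate 3 held for ESRRA (40.7, 41.8 and 35.2 CPM, edgeR adjusted p = 0.000485) and NR1H2 (75.1, 76.2 and 69.7 CPM, edgeR adjusted p = 0.0280).

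Replicate 3 was the highest library for 3 others. NR3C1 was at 167, 160.1 and 180 CPM (edgeR adjusted p = 2.2e-07). NR2C2 was at 106, 99.2 and 111 CPM (edgeR adjusted p = 0.000188), and NR2C1 at 27.1, 28.7 and 31.4 CPM (edgeR adjusted p = 0.0312). PPARA differed from these in being lowest in replicate 2, at 32.4, 28.3 and 31.7 CPM (edgeR adjusted p = 0.0130).

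Base composition moved with this split. Transcripts of the 5 genes low in replicate 3 had GC contents of 63.0% to 71.1%, and those of the 3 genes high there 38.7% to 51.2%. Over the 30 detected receptors, which share the same libraries, the deviation of replicate 3 from the gene mean had a Pearson correlation of -0.64 with GC content. With each library's trend in GC content and length removed, 2 of the 33 were called, both among the 9, NR3C1 (edgeR adjusted p = 0.00128) and NR2C2 (edgeR adjusted p = 9.3e-05). That is 6.06%, beside 12.5% of all tested genes. Without replicate 3, 2 of 34 receptors tested were called, NR2C2 and PPARA, beside 8.67% of all genes tested in that fit, and none of the 9 was called in every one of the 3 fits that leave out a library. When a coefficient of variation of 0.05 between cultures was allowed for, 0 of 33 receptors were called (lowest edgeR adjusted p = 0.792), beside 0.0485% of all tested genes, and 2 had an unadjusted p under 0.05. The common coefficient of variation that edgeR estimated from these same 3 libraries was 0.0459 with counts halved and 0.0545 as deposited. Allowing 0.05 thus took up about the typical spread, so few calls of any gene could remain. With deviances not halved 14 were called, beside 52.7%. RXRB was not among the 9 (edgeR adjusted p = 0.184), but it was called with its MHC copies summed (edgeR adjusted p = 0.000938) and with deviances not halved (edgeR adjusted p = 0.0146).

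**Figure D5:**
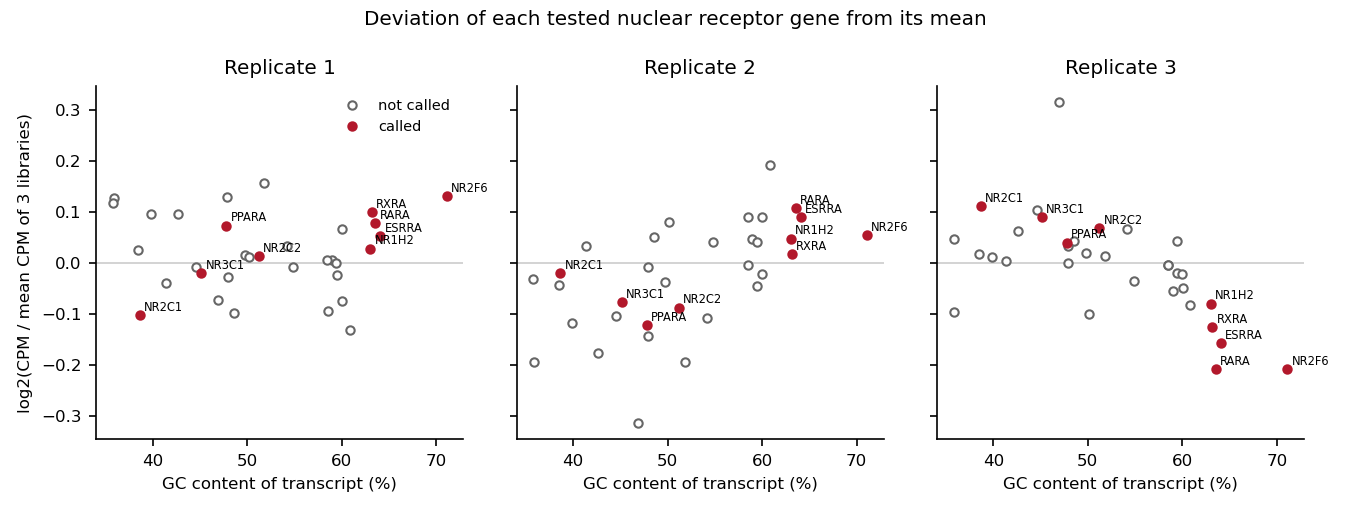
Deviation of each of the 33 tested receptors from its mean CPM over 3 libraries (log2 scale) against the GC content of its transcript, in 1 panel per library, with called genes filled and named. In replicate 3 the filled genes above 63.0% GC all lie below 0 and those between 38.7% and 51.2% lie above it.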

How the data were processed

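RNA sequencing (TruSeq RNA libraries, pairs of 100 bp reads) measured 3 libraries of control siRNA cells. The labels title them biological replicates without naming separate thaws or days, so p-values measure only the spread between these samples. Per the file headers, the deposited values are raw counts for each RefSeq transcript record. FastQC, TopHat2, Cufflinks and hg19 are named in the submitters' processing notes. Their versions, the counting tool and its strand setting are not given in the sources used here.

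Each gene took the count of its record with the largest total, out of 42269 records per library. Accessions identified 6318 of 6937 unnamed records. Those without a match, 619 in number with 0.944% to 0.959% of each library's counts, were dropped. TPM used the length of the GENCODE 29 transcript paired with the record, or else a median over the gene's transcripts. CPM used TMM library sizes. Genes with 2 counts (711, 641 and 587 in replicates 1, 2 and 3) outnumbered genes with 1 count (487, 404 and 386). Both mates of a pair were therefore taken as counted, and deviances were halved. After filterByExpr, edgeR 4.0.16 (R 4.3.3) fitted 14443 genes. The procedure was also run on simulated read pairs with both mates always counted. It recovered 64% of genes changed 1.25-fold in 1 library, with 5 false calls among 14249 unchanged genes. The halving assumes such pairs, whereas many observed counts were odd, so that run cannot check the halving. The simulated unchanged genes also had no variation between cultures, so the number of false calls does not carry over to these libraries. DESeq2 1.42.0 gave alternative size factors, and Python 3.11.15, pandas 2.3.3, numpy 2.4.6 and matplotlib 3.10.9 made summaries and plots.

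Members and lists were chosen with earlier results of these data known. Values per library are given for receptors averaging 1 TPM or more, steroid receptors, those that varied, and the 3 nearest the detection level on either side. Other receptors were named to account for every member. From each pathway list the highest and lowest genes are named, and CYP26A1, CYP26B1, HDAC3, NCOA1, NCOA2, NCOA3 and NCOR1 were chosen after their values were seen. Some genes of these lists are not reported here.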

Additional observations from a re-analysis of the deposited data

How the results depend on the processing

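The number of detected receptors, 30 in all, stayed between 27 and 32 with DESeq2 size factors, a level of 0.5 CPM or 1 TPM, copies summed and each library left out, and was 29 with the smallest record of each gene, an alternative added after seeing the data. The number that varied beyond counting noise, 9, was less stable. It was 14 with deviances not halved, 0 with a coefficient of variation of 0.05 allowed and 2 with the GC and length trend removed, and it lay between 2 and 7 when each library was left out, lowest without replicate 3. With DESeq2 size factors, no filter or copies summed it was 9 or 10. Over all genes tested the count was 4068, and it was 7608 with deviances not halved, 1801 with the trend removed and 7 with the coefficient allowed. Levels moved most with length and copies, but shorter transcripts were not tried. Other records of NR6A1, RORA and THRA held nearly the same counts as those used. Their transcripts were as short as 1898, 1701 and 2260 bases, against the 7031, 10844 and 4895 used. With the longest transcript 29 of 30 receptors given in TPM moved by more than 1 SD over the libraries, among them RXRA, NR2C2, NR3C1, THRB and ESR2 by over 1.5-fold, and leaving out a library moved none of them by that much. Ratios between receptors, also recomputed after seeing the data, moved by over 1.5-fold with length where they involve these genes or RARA and RARB. The shares of summed TPM, likewise recomputed, became 38.4% for orphan, 36.0% for metabolic, 14.0% for retinoid and 9.20% for steroid receptors with the longest transcripts, and 23.6% for retinoid receptors with copies summed. Transcript lengths come from GENCODE 29 and the counts from an hg19 annotation, so the lengths counted may differ. No paired analysis was possible because the libraries form 1 group. Receptors at 0 counts can be given only the upper limit of 6 counts a library, and no level of background counts was estimated for those with a few.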
